A study of Mus musculus with 12 samples.

Results

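The sugar and amino acid carriers are membrane proteins of the solute carrier (Slc) families 1, 2, 3, 5, 6, 7, 36, 38 and 43. A gene was taken as a member when the array's accession for one of its probes led to a RefSeq symbol of those families. This gave 80 carriers, measured by 113 probes, of 32970 genes on 41174 probes in all. Targets known only by an accession count as genes here, and 14664 of the genes tested had a RefSeq symbol. A carrier was tested if some group had its probe well above background in each of its 3 mice, which held for 67 of the 80 carriers and for 23747 of the 32970 genes. Each carrier is represented by its brightest tested probe.

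The samples were scrapings of colon mucosa from 12 mice, 1 mouse per single-colour array. Every recipient was a wild-type C57BL/6 mouse with transplanted C57BL/6 bone marrow. Muc1 encodes a mucin anchored in the cell membrane. Where the donor was a Muc1 knockout, Muc1 was lost from cells of donor marrow origin, and it was kept in the epithelium of every recipient. The 4 groups of 3 mice were treated mice with marrow from Muc1 knockout donors (KO marrow), treated mice with marrow from wild-type donors (WT marrow), untreated mice with KO marrow and untreated mice with WT marrow. Treated mice had received 1 injection of azoxymethane (AOM), a colon carcinogen, at 12.5 mg/kg and then repeated cycles of dextran sodium sulfate (DSS), which injures the colon lining, in the drinking water. Their colons were taken soon after the last DSS cycle. The sources used here state neither the ages of the mice nor the degree of chimerism. The comparisons ask how treatment changed the carriers with each marrow, and whether loss of Muc1 from marrow-derived cells changed them.

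Solute carriers move small molecules across membranes, and sugars and amino acids cannot enter or leave a cell without them. Sodium-coupled carriers such as the Slc5 sugar carriers and many Slc6 and Slc1 carriers pull their cargo in against its gradient, while the Slc2 (GLUT) carriers let sugars follow their gradient. Several Slc7 carriers are light chains that reach the membrane only when bound to a heavy chain, Slc3a2 or Slc3a1. The small intestine takes up most dietary sugar and amino acid. The colon takes up what is left together with short-chain fatty acids made by bacteria, and immune cells that enter an inflamed colon bring carriers of their own.

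Levels are given on a scaled log2 scale, the log2 of the spot signal minus the log2 of that array's 75th percentile, so that 0 is the 75th percentile of the array and 1 unit is a doubling. Levels of different carriers come from different probes and are not compared with each other. Differences are log2 differences of group means ± SE from limma, with n = 3 mice per group. Adjusted p values are from limma with Benjamini-Hochberg adjustment over all 23747 genes, and a carrier is said to rise or fall where that p is under 0.05.

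On 11 arrays the 75th percentile lay between 332 and 767.8 signal units, and on the array of treated WT-marrow mouse 3 at 153.2 units, and 58.44% to 78.72% of gene spots per array were well above background. The arrays lay on 3 slides, and slide was not balanced over the groups. Slide 1 held the 3 untreated WT-marrow mice and untreated KO-marrow mouse 1. Slide 2 held untreated KO-marrow mice 2 and 3 and mouse 3 of each treated group, and slide 3 held the other 4 treated mice. No slide held both WT-marrow groups, so with WT marrow treatment cannot be told apart from slide within any slide. Among markers of the cells in the scrapings, 4 of 13 absorptive colonocyte markers fell with treatment in KO-marrow mice and 7 of 13 in WT-marrow mice. Of 9 neutrophil markers, 8 rose with treatment in each marrow, as did 6 of 10 monocyte and macrophage markers. The neutrophil markers Csf3r, Cxcr2, Retnlg and Mmp8 were tested only because treated mice held them well above background. The filter favoured a rise in them, so the neutrophil count is partly set by it. In a fit with slide as a block the counts were 5 colonocyte, 8 neutrophil and 6 macrophage markers with KO marrow, against 0, 3 and 1 with WT marrow. That fit could place slide 1 against the other slides only through untreated KO-marrow mouse 1 set against untreated KO-marrow mice 2 and 3. Each blocked WT-marrow treatment difference, blocked marrow difference in untreated mice and blocked interaction therefore rests on that 1 mouse. A trait of that mouse cannot be told apart from slide 1 there. Slide 3 was set against slide 2 through the treated mice of both marrows. The blocked KO-marrow treatment differences therefore also draw on treated WT-marrow mouse 3, the array at 153.2 units. Of all genes, 3.15% were called with KO marrow and 13.8% with WT marrow when slide was not in the fit. With the block 4.66% were called higher and 2.60% lower with KO marrow, and 0.467% and 0.0674% with WT marrow. In a bulk scraping, fewer cells of a type and less RNA per cell cannot be told apart.

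With KO marrow, treatment raised 2 carriers and lowered 2 of the 67. The 2 that rose were Slc5a9 and Slc7a7, and the 2 that fell were Slc2a5 and Slc5a1. Over all genes 3.15% were called in this comparison, 1.85% of them higher and 1.31% lower as shares of all genes. With WT marrow, 3 carriers rose, Slc5a9, Slc7a7 and Slc2a3, and 13 fell. Over all genes 13.8% were called with WT marrow, 3.61% higher and 10.2% lower. The median difference of the 67 carriers was -0.51 with KO marrow and -1.03 with WT marrow, where the medians of all genes were -0.11 and -0.24. The plot of all carriers by family gives every difference for both marrows. Slc5a9, Slc7a7 and Slc2a5 were called with both marrows and in the same direction. At an unadjusted p under 0.05 limma counted 17 carriers with KO marrow, where 14.5% of all genes passed, and 37 with WT marrow, where 33.0% passed. Treated and untreated mice did not overlap for 8 carriers that were higher and 15 that were lower with KO marrow, where the shares of all genes were 11.2% and 12.5%. With WT marrow they did not overlap for 6 carriers that were higher and 24 that were lower, where the shares were 11.2% and 22.0%.

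**Figure D1:**
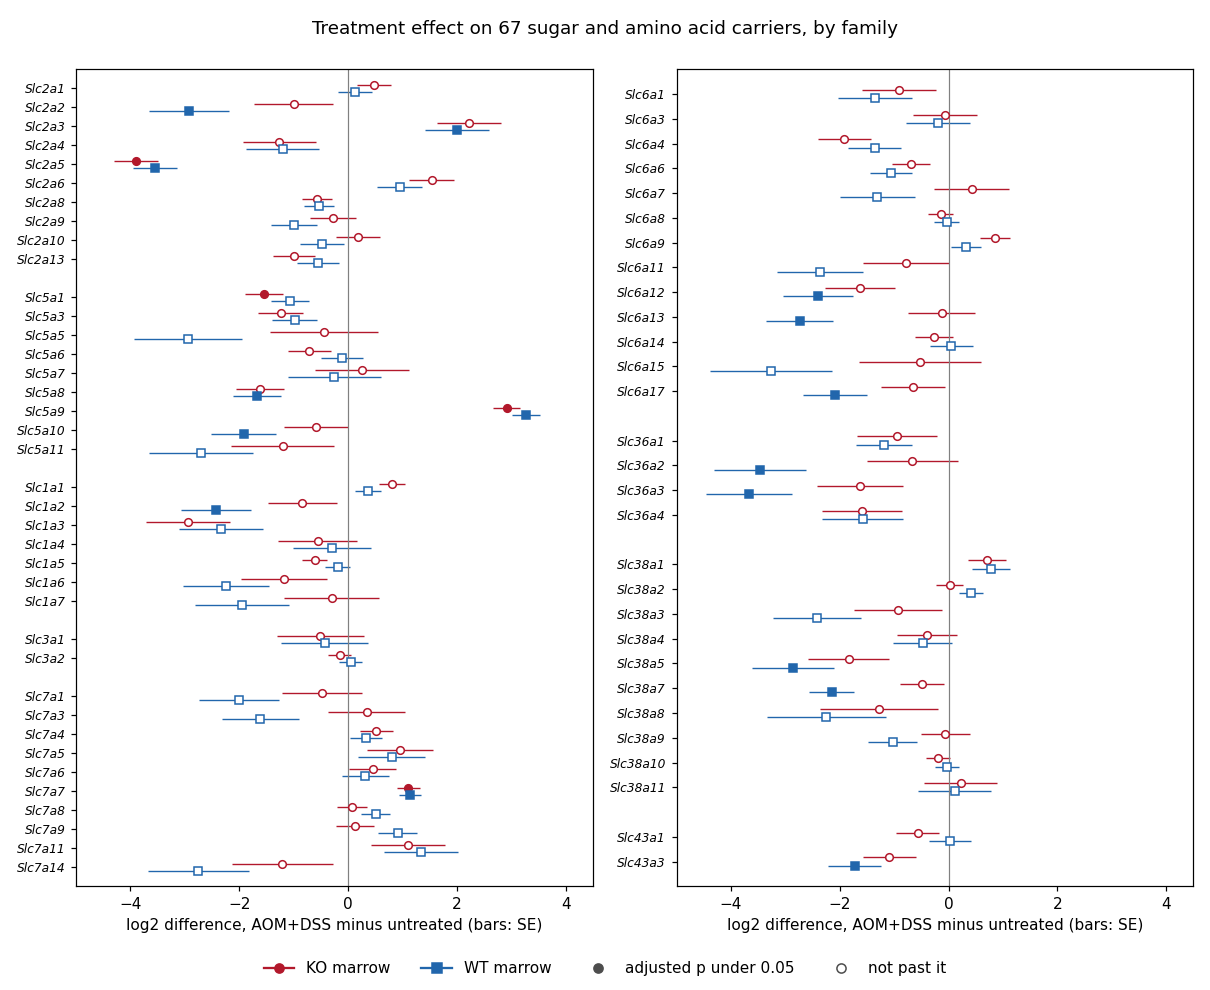
Treatment effect on the 67 tested carriers, arranged by family. The horizontal axis is the log2 difference of treated minus untreated mice with its SE, red circles are KO marrow and blue squares WT marrow, and filled symbols passed an adjusted p of 0.05 in limma. Slc5a9 lies at 2.92 and 3.27 and Slc2a5 at -3.90 and -3.55, with KO and WT marrow in that order, and more symbols are filled left of 0 with WT marrow, 13, than with KO marrow, 2.

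The promoters shown are those of 3 carriers called with KO marrow, Slc2a5 and Slc5a1, which fell, and Slc7a7, which rose; for Slc7a7, which has 5 windows, the first and the last are given. RefSeq windows (GRCm38.p6) run from 250 bases before to 50 bases after a start, and 57 of the 80 carriers had 1 or more, 80 windows in all. The letters searched, on both strands, were CACGTG (E-box), GTTAAT (a site of HNF1), TTTATNG (CDX), TGANTCA (AP-1) and TGATGNAA (C/EBP-ATF), and matches are in capitals below.
Slc2a5, chr4:150119094-150119393, plus strand: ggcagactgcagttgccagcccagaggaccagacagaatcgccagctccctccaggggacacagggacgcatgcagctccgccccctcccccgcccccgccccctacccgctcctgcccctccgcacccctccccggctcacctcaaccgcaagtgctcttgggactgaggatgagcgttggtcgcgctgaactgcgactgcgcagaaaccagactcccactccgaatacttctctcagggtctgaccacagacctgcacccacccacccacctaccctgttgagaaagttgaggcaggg
Slc5a1, chr5:33103969-33104268, plus strand: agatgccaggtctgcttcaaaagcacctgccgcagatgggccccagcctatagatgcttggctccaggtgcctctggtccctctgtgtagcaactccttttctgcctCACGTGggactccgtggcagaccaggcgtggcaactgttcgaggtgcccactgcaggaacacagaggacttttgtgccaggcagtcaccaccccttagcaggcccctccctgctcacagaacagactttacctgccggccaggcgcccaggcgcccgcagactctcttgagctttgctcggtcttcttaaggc
Slc7a7, the window nearest the gene's end, chr14:54409423-54409722, minus strand: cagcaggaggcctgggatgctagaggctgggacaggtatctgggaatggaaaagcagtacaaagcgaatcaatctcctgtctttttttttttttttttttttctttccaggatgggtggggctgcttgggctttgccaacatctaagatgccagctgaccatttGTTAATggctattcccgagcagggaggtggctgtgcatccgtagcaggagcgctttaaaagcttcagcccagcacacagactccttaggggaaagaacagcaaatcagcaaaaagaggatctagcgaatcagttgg
Slc7a7, the window furthest upstream, chr14:54417895-54418194, minus strand: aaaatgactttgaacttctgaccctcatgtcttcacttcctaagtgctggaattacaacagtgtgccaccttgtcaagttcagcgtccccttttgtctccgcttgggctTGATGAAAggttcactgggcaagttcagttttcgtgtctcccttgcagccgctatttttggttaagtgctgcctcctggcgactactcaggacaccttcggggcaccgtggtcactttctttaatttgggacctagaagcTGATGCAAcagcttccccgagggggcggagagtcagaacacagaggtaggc
The Slc2a5 window holds 0 of the 5 motifs. The E-box of the Slc5a1 window is present in 11.2% of the 80 carrier windows and in 7.15% of 32851 mouse promoter windows of the same length. The HNF1 letters are in 7.5% of carrier windows and 7.10% of all windows, and the C/EBP-ATF letters, which occur at 2 places in the upstream Slc7a7 window, in 5.0% and 3.97%. The CDX letters were found in 6.25% of carrier windows and 10.9% of all windows, and the AP-1 letters in 12.5% and 7.81%. These matches describe the letters only.

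Slc2a5 (GLUT5), the fructose carrier of the apical gut membrane, had the largest fall among the carriers called with KO marrow. Its scaled log2 levels were -2.34, -2.96 and -1.63 in treated KO-marrow mice, against 1.69, 1.35 and 1.74 in untreated KO-marrow mice. They were -2.43, -3.0 and -1.67 in treated WT-marrow mice, against 0.69, 1.31 and 1.56 in untreated WT-marrow mice. All 6 treated mice lay below all 6 untreated mice, and untreated KO-marrow mouse 1, on slide 1, lay between mice 2 and 3, on slide 2. The log2 difference was -3.90 ± 0.41 with KO marrow (14.9-fold lower, adjusted p = 0.000432 in limma) and -3.55 ± 0.41 with WT marrow (11.7-fold lower, adjusted p = 0.00131 in limma). In the fit with slide as a block the difference was -3.17 with KO marrow (adjusted p = 0.00178 in limma) and -2.72 with WT marrow, where the call was lost (adjusted p = 0.0698 in limma).

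Slc5a9 (SGLT4), a sodium-coupled carrier of mannose and other hexoses, had the largest positive difference of the 67 carriers with each marrow. Its levels were 2.71, 2.52 and 2.19 in treated KO-marrow mice, against -0.52, -0.53 and -0.27 in untreated KO-marrow mice. They were 3.54, 3.01 and 3.00 in treated WT-marrow mice, against -0.03, 0.09 and -0.32 in untreated WT-marrow mice. The treated and untreated mice were separated by more than 2 units in each marrow, and mice of 1 group lay close together across slides. Treated and untreated means differed by 2.92 ± 0.25 with KO marrow (7.55-fold higher, adjusted p = 0.000116 in limma) and 3.27 ± 0.25 with WT marrow (9.65-fold higher, adjusted p = 3.77e-05 in limma). It was the 1 carrier that stayed called with WT marrow when slide was a block, at 2.92 (adjusted p = 0.0174 in limma). With that block 0.467% of all genes were called higher with WT marrow and 0.0674% lower.

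Slc5a1 (SGLT1), the sodium-glucose cotransporter of the apical membrane, fell with KO marrow. Its levels were 0.24, 0.96 and 0.87 in treated KO-marrow mice, against 1.93, 2.46 and 2.30 in untreated KO-marrow mice. They were 0.87, 0.86 and -0.25 in treated WT-marrow mice, against 1.34, 1.30 and 2.03 in untreated WT-marrow mice. The groups did not overlap in either marrow, and the gap between them was narrower with WT marrow. The log2 difference was -1.54 ± 0.35 with KO marrow (adjusted p = 0.0283 in limma) and -1.06 ± 0.35 with WT marrow (adjusted p = 0.0567 in limma). A second Slc5a1 probe gave -1.06 with KO marrow and -0.40 with WT marrow. The KO-marrow call was lost when any 1 of the 6 arrays of its own groups other than untreated mouse 1 was left out, with differences of -1.32 to -1.68 and adjusted p values of 0.0578 to 0.134 in limma.

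**Figure D2:**
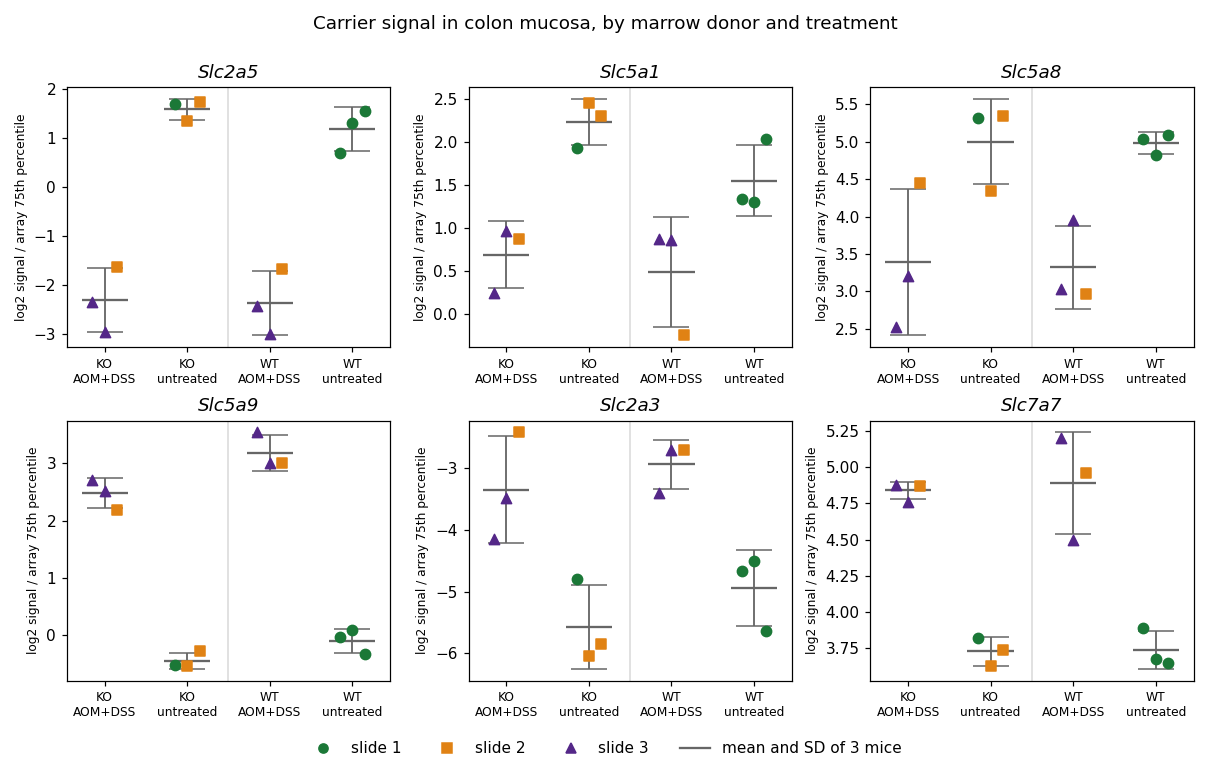
Scaled log2 signal (vertical axes) of 6 carriers in single mice, with the group mean and SD of 3 mice and the array slide as colour and symbol. In each panel treated mice stand left of untreated mice, KO marrow at the left and WT marrow at the right. Slc2a5 and Slc5a9 separate the treated and untreated mice by more than 2 units with each marrow, and in Slc5a8 the highest treated KO-marrow mouse, at 4.45, lies above the lowest untreated one, at 4.34.

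Slc7a7 (y+LAT1), the light chain that exports cationic amino acids in exchange for neutral ones and is present in epithelium and in macrophages, rose with both marrows. Its levels were 4.88, 4.76 and 4.87 in treated KO-marrow mice, against 3.82, 3.63 and 3.74 in untreated KO-marrow mice. They were 5.20, 4.5 and 4.96 in treated WT-marrow mice, against 3.89, 3.68 and 3.65 in untreated WT-marrow mice. All treated mice were above all untreated mice by at least 0.6 units. Treated and untreated means differed by 1.11 ± 0.21 with KO marrow (adjusted p = 0.0128 in limma) and 1.14 ± 0.21 with WT marrow (adjusted p = 0.00961 in limma). Blocking on slide gave 1.21 with KO marrow (adjusted p = 0.0268 in limma) and 1.34 with WT marrow (adjusted p = 0.152 in limma). With normexp background correction the call was lost in both marrows, at 1.01 with KO marrow and 0.48 with WT marrow.

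Beside these changes, the summed scaled signal of the 10 tested monocyte and macrophage markers was 48.9 to 66.5 in treated KO-marrow mice, against 10.5 to 19.1 in untreated KO-marrow mice. It was 43.1 to 74.5 in treated WT-marrow mice, against 11.5 to 37 in untreated WT-marrow mice. That of the 9 tested neutrophil markers was 12 to 56.1 in treated KO-marrow mice, against 0.213 to 0.326 in untreated KO-marrow mice, and 50.9 to 127 in treated WT-marrow mice, against 0.213 to 0.616 in untreated WT-marrow mice. In neither untreated group did any array hold Csf3r, Cxcr2, Retnlg or Mmp8 well above background. The summed signal of 13 absorptive colonocyte markers was 496 to 987 in treated KO-marrow mice, against 1270 to 1770 in untreated KO-marrow mice. It was 483 to 995 in treated WT-marrow mice, against 1170 to 2100 in untreated WT-marrow mice. The part of these cell markers in the carrier changes was not tested.

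Among the glucose carriers, Slc2a3 (GLUT3), the high-affinity carrier of neurons and white blood cells, rose with WT marrow. Its levels were -3.40, -2.70 and -2.71 in treated WT-marrow mice, against -4.67, -4.51 and -5.64 in untreated WT-marrow mice. With KO marrow they were -4.14, -3.48 and -2.42 in treated mice, against -4.79, -6.05 and -5.85 in untreated mice, of which 2 arrays were well above background. The groups did not overlap in either marrow. The log2 difference was 2.22 ± 0.59 with KO marrow (adjusted p = 0.0651 in limma) and 2.01 ± 0.59 with WT marrow (adjusted p = 0.0419 in limma). With slide as a block the 2 marrows changed places, with 3.19 and a call for KO marrow (adjusted p = 0.0121 in limma) and 3.75 without a call for WT marrow (adjusted p = 0.0881 in limma).

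Slc2a6 (GLUT6), a hexose carrier of inner membranes that macrophages also express, did not pass the test with either marrow on the 75th percentile scale. Its levels were -1.62, -1.05 and -1.04 in treated KO-marrow mice, against -1.90, -3.0 and -3.44 in untreated KO-marrow mice. They were -1.09, -1.02 and -0.55 in treated WT-marrow mice, against -1.73, -1.57 and -2.19 in untreated WT-marrow mice. The groups did not overlap in either marrow. Treated and untreated means differed by 1.54 ± 0.41 with KO marrow (adjusted p = 0.0674 in limma) and 0.95 ± 0.41 with WT marrow (adjusted p = 0.132 in limma). Slide as a block gave 2.25 with KO marrow, which was called (adjusted p = 0.00893 in limma), and 2.53 with WT marrow, which was not (adjusted p = 0.0812 in limma). After quantile normalization Slc2a6 was called in both marrows, at 1.45 with KO marrow (adjusted p = 0.0309 in limma) and 1.27 with WT marrow (adjusted p = 0.0234 in limma). Slc2a1 (GLUT1), the basal glucose carrier of most cells, differed by 0.48 ± 0.31 with KO marrow and 0.13 ± 0.31 with WT marrow, and neither passed the test. Slc2a2 (GLUT2), the basolateral sugar exit of small-intestinal enterocytes, fell with WT marrow and is described with the slides.

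Slc5a8 (SMCT1), the colonic carrier of short-chain fatty acids and lactate, fell with WT marrow. Its levels were 3.03, 3.95 and 2.96 in treated WT-marrow mice, against 5.04, 4.82 and 5.09 in untreated WT-marrow mice. They were 2.52, 3.21 and 4.45 in treated KO-marrow mice, against 5.32, 4.34 and 5.34 in untreated KO-marrow mice. The groups were apart with WT marrow and overlapped by 1 mouse with KO marrow. The log2 difference was -1.61 ± 0.44 with KO marrow (adjusted p = 0.0740 in limma) and -1.67 ± 0.44 with WT marrow (adjusted p = 0.0313 in limma). With slide as a block it was -1.09 with KO marrow and -0.83 with WT marrow, and neither was called. Slc5a6, the carrier of biotin and pantothenate, differed by -0.71 ± 0.39 with KO marrow and -0.11 ± 0.39 with WT marrow, without passing the test.

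The heavy chains that Slc7 light chains need did not pass the test in either marrow. Slc3a2 (4F2hc, CD98), the partner of Slc7a5, Slc7a6, Slc7a7, Slc7a8 and Slc7a11, had levels of 2.68, 2.82 and 2.49 in treated KO-marrow mice, against 2.54, 2.96 and 2.95 in untreated KO-marrow mice. They were 2.55, 2.62 and 2.68 in treated WT-marrow mice, against 2.81, 2.41 and 2.49 in untreated WT-marrow mice. The groups overlapped in both marrows, with log2 differences of -0.15 ± 0.21 with KO marrow and 0.05 ± 0.21 with WT marrow. Slc3a1 (rBAT), the partner of the cystine light chain Slc7a9, differed by -0.51 ± 0.80 with KO marrow and -0.43 ± 0.80 with WT marrow, and its levels spread over more than 2 units among mice of 1 treated group. Slc7a9 itself differed by 0.12 ± 0.35 with KO marrow and 0.91 ± 0.35 with WT marrow, without passing the test.

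Of 10 tested Slc7 carriers, 1 rose with each marrow, Slc7a7, and 0 fell. Over all genes 1.85% were called higher and 1.31% lower with KO marrow, and 3.61% and 10.2% with WT marrow. The family's median difference was 0.40 with KO marrow and 0.42 with WT marrow. Slc7a5 (LAT1), the carrier of large neutral amino acids in dividing cells, had levels of -0.54, -0.73 and 0.02 in treated KO-marrow mice, against -0.61, -1.86 and -1.65 in untreated KO-marrow mice. It had -0.12, -0.89 and 1.91 in treated WT-marrow mice, against 0.14, -0.59 and -1.07 in untreated WT-marrow mice. The groups overlapped in both marrows, and treated WT-marrow mouse 3, the dim array, was the highest of all. Treated and untreated means differed by 0.96 ± 0.61 with KO marrow and 0.80 ± 0.61 with WT marrow, neither called. Blocking on slide gave 2.36 with KO marrow (adjusted p = 0.0264 in limma) and 2.97 with WT marrow (adjusted p = 0.118 in limma), and without treated WT-marrow mouse 3 the WT-marrow difference was 0.00. Slc7a11 (xCT), which imports cystine in exchange for glutamate, differed by 1.11 ± 0.68 with KO marrow and 1.35 ± 0.68 with WT marrow, and Slc7a6, Slc7a8 and the cationic carrier Slc7a1 did not pass the test in either marrow.

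The Slc1 family carries glutamate and neutral amino acids, and 1 of its 7 members was called. It was Slc1a2 (GLT-1), a glutamate carrier best known from astrocytes, which fell with WT marrow. Over all genes 10.2% were called lower with WT marrow. Slc1a1 (EAAT3), the glutamate carrier of gut epithelium, had levels of 3.05, 2.65 and 2.47 in treated KO-marrow mice, against 1.96, 1.81 and 1.97 in untreated KO-marrow mice. Those groups did not overlap, and the log2 difference of 0.81 ± 0.24 missed the threshold (adjusted p = 0.0939 in limma). With WT marrow it was 0.37 ± 0.24. A second Slc1a1 probe differed by 0.21 with KO marrow and -0.04 with WT marrow, and neither passed the test over all probes. Slc1a5 (ASCT2), a glutamine carrier, differed by -0.61 ± 0.23 with KO marrow and -0.19 ± 0.23 with WT marrow. Slc1a4 (ASCT1) differed by -0.56 ± 0.72 and -0.29 ± 0.72, with KO and WT marrow in that order.

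Slc1a3 (GLAST), the other main glutamate carrier of glia, had a lower mean in treated mice without passing the test. Its levels were -6.44, -7.63 and -6.79 in treated KO-marrow mice, against -3.76, -4.35 and -3.93 in untreated KO-marrow mice. No treated KO-marrow array held it well above background, so its fold there is a bound on the group means, at least 5.01-fold lower. The bound leaves out the spread between mice, and the difference did not pass the test (adjusted p = 0.0609 in limma). With normexp background correction the difference was 0.08 with KO marrow and 0.78 with WT marrow, so the bound holds only for the signal used here. For this bound each treated array was given the dimmest signal that counted as well above background there, or the probe's signal where that was higher. With WT marrow the levels were -6.75, -4.42 and -6.59 in treated mice, against -4.67, -2.28 and -3.81 in untreated mice, and these overlapped.

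In the Slc6 family of 13 tested sodium- and chloride-coupled carriers, 0 were called with KO marrow, where 3.15% of all genes were called. At an unadjusted p under 0.05 limma counted 3 Slc6 carriers, where 14.5% of all genes passed. Over all genes 10.2% were called lower with WT marrow, and counts this small are not read as a result about the family. With WT marrow 3 fell, the betaine and GABA carrier Slc6a12, the GABA and taurine carrier Slc6a13 and Slc6a17, a carrier of neutral amino acids in neurons. Slc6a4 (SERT), which clears serotonin, had levels of -0.84, -0.28 and -0.79 in treated KO-marrow mice, against 1.03, 1.56 and 1.27 in untreated KO-marrow mice. The groups were more than 1 unit apart, and the log2 difference was -1.92 ± 0.49 (adjusted p = 0.0539 in limma). Slide as a block gave -2.55, which was called (adjusted p = 0.0303 in limma). With WT marrow its levels were -1.05, -0.28 and -1.91 in treated mice, against 0.25, -0.74 and 1.31 in untreated mice, which overlapped, with a difference of -1.36 ± 0.49.

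Other Slc6 carriers had smaller differences. Slc6a8, the creatine carrier, differed by -0.15 ± 0.23 with KO marrow and -0.04 ± 0.23 with WT marrow. Slc6a14 (ATB0,+), a broad carrier of neutral and cationic amino acids, differed by -0.27 ± 0.35 with KO marrow and, with 1 treated array missing after an outlier flag, by 0.05 ± 0.39 with WT marrow. Slc6a6, the taurine carrier, differed by -0.69 ± 0.35 with KO marrow and, with 1 treated array missing, by -1.06 ± 0.39 with WT marrow. None of these passed the test.

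The Slc38 carriers move glutamine and other small neutral amino acids. Of 10 tested, 0 were called with KO marrow (1 at an unadjusted p under 0.05 in limma), and 2 fell with WT marrow, Slc38a5 and the lysosomal glutamine carrier Slc38a7. The shares of all genes were 3.15% called and 14.5% at that unadjusted p with KO marrow, and 10.2% lower with WT marrow. Slc38a1, a glutamine importer of many cell types, had levels of 2.62, 2.76 and 3.39 in treated KO-marrow mice, against 2.28, 2.02 and 2.37 in untreated KO-marrow mice. The groups did not overlap, with a log2 difference of 0.70 ± 0.35 (adjusted p = 0.391 in limma). In the fit with slide as a block the difference was 1.37, which was called (adjusted p = 0.0279 in limma). Without the block a second Slc38a1 probe differed by 0.48 with KO marrow, and neither marrow passed the test over all probes. With WT marrow that probe differed by -0.37, opposite in sign to the 0.78 of the probe used. Slc38a2, a carrier induced when amino acids are scarce, differed by 0.02 ± 0.25 with KO marrow, with 1 treated array missing, and 0.41 ± 0.22 with WT marrow.

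The proton-coupled Slc36 carriers and the Slc43 carriers were few. Slc36a1 (PAT1), which exports amino acids from lysosomes and imports them in gut epithelium, had 1 measured treated KO-marrow array, at 2.50, against 3.38, 3.19 and 3.79 in untreated KO-marrow mice. Slc36a2 and Slc36a3 fell with WT marrow, and 0 of 4 Slc36 carriers were called with KO marrow (0 at an unadjusted p under 0.05 in limma). The shares of all genes were 10.2% lower with WT marrow, and 3.15% called and 14.5% at that unadjusted p with KO marrow. Slc43a3, a carrier of purine bases, fell with WT marrow, with levels of -2.76, -1.86 and -0.50 in treated mice, against -0.08, -0.08 and 0.22 in untreated mice. With KO marrow its levels were -1.60, -1.68 and -0.57 in treated mice, against -0.06, -0.40 and -0.12 in untreated mice. The groups were apart in both marrows, with log2 differences of -1.09 ± 0.49 with KO marrow (adjusted p = 0.322 in limma) and -1.73 ± 0.49 with WT marrow (adjusted p = 0.0370 in limma).

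The 13 carriers that fell with WT marrow were sorted into 2 kinds by slide, with a cut at 1 unit. Untreated KO-marrow mouse 1 shared slide 1 with the untreated WT-marrow mice, while untreated KO-marrow mice 2 and 3 were on slide 2. In 9 of the 13 carriers mouse 1 was more than 1 unit above the mean of mice 2 and 3, with gaps of 1.29 to 3.04. These were Slc2a2, Slc5a10, Slc1a2, Slc6a13, Slc6a17, Slc36a2, Slc36a3, Slc38a5 and Slc38a7. In the other 4, Slc2a5, Slc5a8, Slc6a12 and Slc43a3, the gap was 0.14 to 0.93. The 4 slide 1 arrays were still the 4 highest for Slc6a12, at -1.36 to -0.96, with the next array at -1.79. They were also the 4 highest for Slc43a3, by a narrow margin of -0.08 against -0.12. A gap of more than 1 unit was present in 25 of all 67 carriers, in 30.9% of all genes and in 70.8% of all genes that fell with WT marrow.

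Slc2a2 shows the first kind. Its levels were -1.84 in untreated KO-marrow mouse 1 and -3.87 and -4.35 in untreated KO-marrow mice 2 and 3. They were -5.10, -5.25 and -2.96 in treated WT-marrow mice, against -1.27, -1.17 and -2.11 in untreated WT-marrow mice. The 4 arrays of slide 1 were the 4 highest, and untreated mice 2 and 3 with KO marrow lay among the treated mice, of which treated KO-marrow mice had -4.59, -4.67 and -3.80. The log2 difference with WT marrow was -2.92 ± 0.73 (adjusted p = 0.0267 in limma), and with slide as a block it was 0.37 (adjusted p = 0.827 in limma). With KO marrow it was -1.0 ± 0.73.

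**Figure D3:**
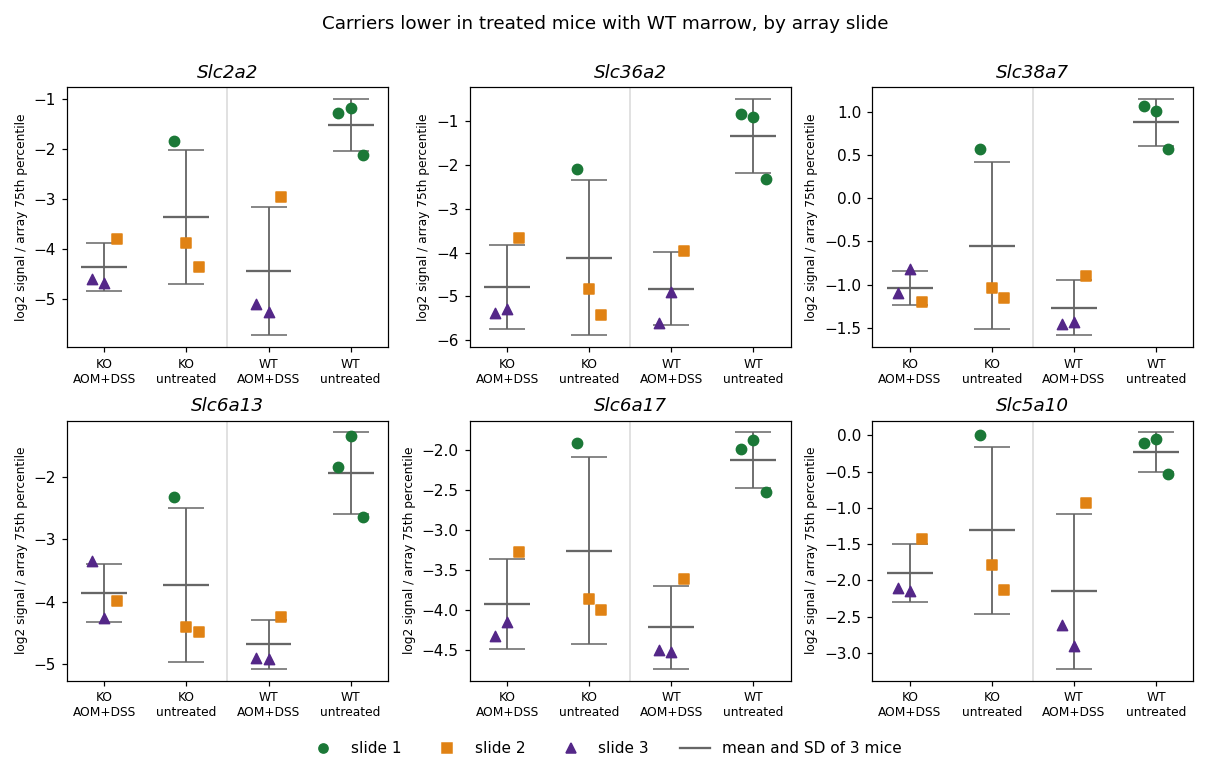
Scaled log2 signal (vertical axes) of 6 carriers that fell in treated mice with WT marrow, in single mice, with group mean and SD of 3 mice and the array slide as colour and symbol. In each panel treated mice stand left of untreated mice, KO marrow at the left and WT marrow at the right. All 6 are from the 9 falls in which untreated KO-marrow mouse 1 lay more than 1 unit above the mean of mice 2 and 3. The panels therefore show that gap by choice and do not test it. The green circles of slide 1, which are the 3 untreated WT-marrow mice and 1 untreated KO-marrow mouse, lie above the other 8 arrays in all 6 panels.

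Slc38a7 had levels of -1.46, -1.44 and -0.90 in treated WT-marrow mice, against 1.07, 1.01 and 0.57 in untreated WT-marrow mice. It had -1.10, -0.82 and -1.20 in treated KO-marrow mice, against 0.57, -1.04 and -1.16 in untreated KO-marrow mice. The slide 1 arrays were again the 4 highest. The log2 difference with WT marrow was -2.15 ± 0.41 (adjusted p = 0.0111 in limma), and with slide as a block it was -0.37. Slc36a3 and Slc36a2, members of the Slc36 family, differed by -3.67 ± 0.79 and -3.47 ± 0.84 with WT marrow, and by -0.54 and 0.55 with slide as a block. The other Slc36a3 probes differed by -1.83 and -2.81 with WT marrow, and neither passed the test over all probes. Slc38a5, which was well above background on 1 array of each treated group, 2 of untreated KO-marrow mice and all 3 of untreated WT-marrow mice, differed by -2.86 ± 0.75 with WT marrow and by -0.28 with slide as a block.

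The other falls with WT marrow were also smaller in size with slide as a block. Slc6a13 differed by -2.74 ± 0.61, and by -0.46 with slide as a block, and its second probe differed by -0.49 without the block. Slc1a2 differed by -2.43 ± 0.64 and by -0.10 with the block. Slc6a12 differed by -2.40 ± 0.64 and by -0.34 with the block. Slc6a17 differed by -2.09 ± 0.59 and by 0.56 with the block, and its second probe differed by -1.19 without it and did not pass. Slc5a10, a mannose and fructose carrier known from kidney, differed by -1.92 ± 0.59 and by 0.89 with the block. Slc43a3 differed by -0.57 and Slc5a8 by -0.83 with the block. With slide as a block 0 of the 13 falls with WT marrow passed the test in limma. It then called 1 of the 67 carriers, Slc5a9, where 0.467% of all genes were called higher and 0.0674% lower. The blocked differences rest on the same gap of untreated KO-marrow mouse 1, so the gap and the block are not separate readings. Several falls were also small with normexp background correction and no slide term. They were -0.17 for Slc2a2, -0.47 for Slc36a2, -0.27 for Slc36a3, -0.07 for Slc6a13 and -0.34 for Slc6a12. Slc2a5 (-2.02), Slc5a8 (-1.93) and Slc38a7 (-1.4) stayed called with normexp. The part of background handling in these falls was not tested.

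With KO marrow, where slide 2 held both treated and untreated mice, the block moved the count the other way. To set slide 3 against slide 2, that fit also drew on treated WT-marrow mouse 3, the dim array. The blocked KO-marrow calls therefore do not rest on KO-marrow mice alone. With KO marrow and the block limma called 10 carriers, 6 higher and 4 lower, where 4.66% of all genes were called higher and 2.60% lower. The 6 higher were Slc5a9, Slc7a7, Slc2a3, Slc2a6, Slc7a5 and Slc38a1. The 4 lower were Slc2a5, Slc5a1, Slc6a4 and Slc5a3, the myo-inositol carrier, whose difference with the block was -1.64 (adjusted p = 0.0468 in limma). Within slide 2 alone, treated KO-marrow mouse 3 differed from untreated KO-marrow mice 2 and 3 by 2.60 for Slc5a9, 1.19 for Slc7a7, -3.17 for Slc2a5 and -1.51 for Slc5a1. Within that slide limma called 20 carriers, where 26.3% of all genes were called, with 1 treated array and a spread taken from the 2 untreated arrays. These 4 within-slide differences had the same sign as those over all slides, and the plot without and with slide as a block sets both fits side by side.

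**Figure D4:**
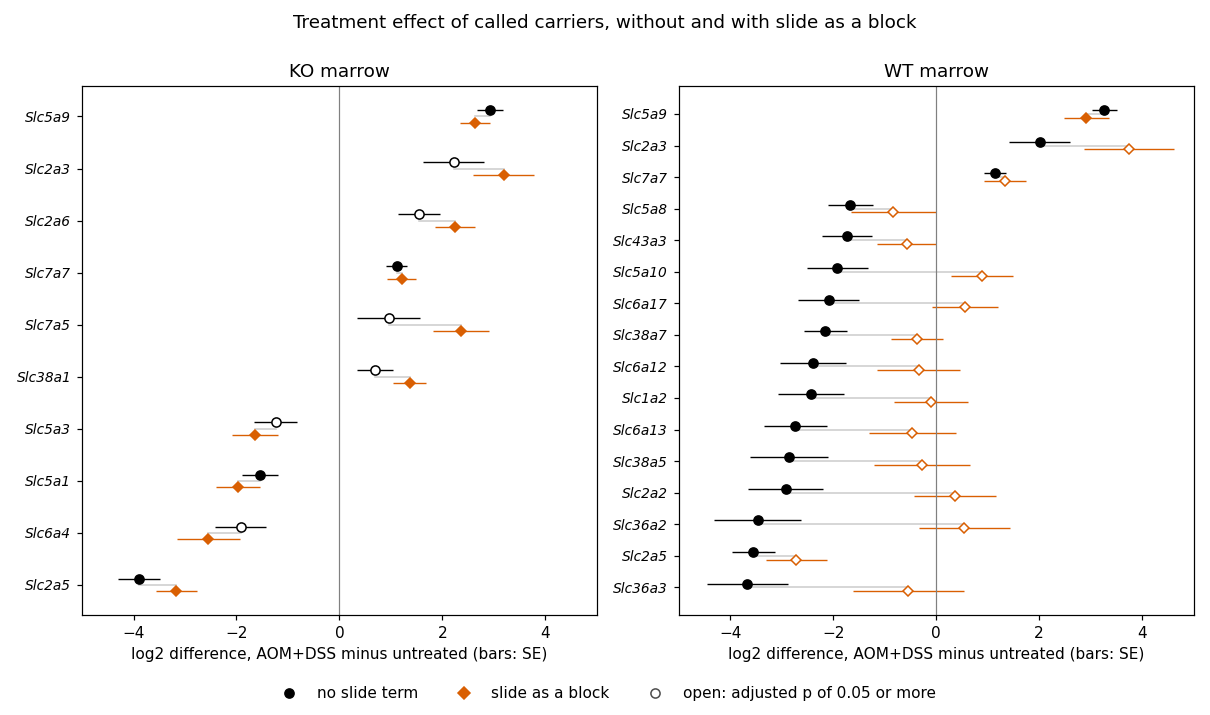
Log2 difference of treated minus untreated mice (horizontal axes, bars are SE) for carriers called in either fit, with KO marrow at the left and WT marrow at the right. Black circles are the fit without slide, orange diamonds the fit with slide as a block, and open symbols did not pass an adjusted p of 0.05 in limma. With KO marrow all 10 carriers lie on the same side of 0 in both fits, and with WT marrow 12 of the 13 falls lie within 1 unit of 0 with the block, the exception being Slc2a5 at -2.72.

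Read by family, the differences with KO marrow had medians of -0.42 for Slc2, -0.71 for Slc5, -0.61 for Slc1, -0.33 for Slc3, 0.40 for Slc7, -0.52 for Slc6, -1.27 for Slc36, -0.30 for Slc38 and -0.83 for Slc43. With WT marrow they were -0.54, -1.06, -1.95, -0.19, 0.42, -1.36, -2.53, -0.75 and -0.86 in the same order. With slide as a block the median of all 67 carriers was 0.21 with KO marrow and 0.05 with WT marrow, where the medians of all genes were 0.44 and 0.47. The Slc7 median was then 1.18 with KO marrow and 1.32 with WT marrow, and the Slc36 median -0.35 and -0.36. Slc7 was the 1 family with at least 3 tested members whose median was above 0 with both marrows in both fits.

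Genes that work with the carriers were counted from 5 lists, beside a share of all genes called of 3.15% with KO marrow and 13.8% with WT marrow. Of 23 amino acid response genes, targets of the factor ATF4, 2 rose and 1 fell with KO marrow, and 2 rose and 2 fell with WT marrow. Asns, which makes asparagine, rose by 1.42 ± 0.24 with KO marrow and 1.35 ± 0.27 with WT marrow, and Cebpb, a transcription factor of inflammation and stress, by 1.44 ± 0.28 and 1.95 ± 0.28. Cth, a cysteine-making enzyme, fell by 1.24 with KO marrow and 0.98 with WT marrow. Sesn2, a leucine sensor, fell by 1.65 with WT marrow. It was the 1 gene called of 12 amino acid sensing and mTORC1 genes, where KO marrow had 0 called (1 at an unadjusted p under 0.05 in limma).

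Of 20 glycolysis and lactate export genes, 1 rose and 1 fell with KO marrow, and 2 rose and 1 fell with WT marrow. Pfkfb3, whose product switches glycolysis on, rose by 4.17 ± 0.48 with KO marrow and 3.17 ± 0.48 with WT marrow. Hk2, a hexokinase, rose by 1.39 ± 0.37 with WT marrow, and the phosphofructokinase Pfkl fell by 0.94 with KO marrow and 0.80 with WT marrow. Of 12 brush border and partner genes, 3 fell with KO marrow and 4 with WT marrow, and 0 rose in either marrow. The peptide carrier Slc15a1 fell by 1.77 with KO marrow and 1.60 with WT marrow. Khk, the kinase that takes up fructose metabolism after Slc2a5, fell by 0.93 with KO marrow and 1.14 with WT marrow. Of 9 glutathione and thioredoxin genes, Hmox1 rose by 1.63 ± 0.34 and Nqo1 fell by 1.31 with KO marrow, and Txnrd1 rose by 1.09 ± 0.32 with WT marrow.

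When slide was a block, the WT-marrow calls named from these lists were lost except that of Txnrd1, which differed by 2.04 (adjusted p = 0.0443 in limma). For WT marrow the blocked differences were 1.88 for Asns, 1.39 for Cebpb, -0.72 for Cth, -0.22 for Sesn2, 2.84 for Pfkfb3, 2.17 for Hk2, -1.28 for Pfkl, -0.02 for Slc15a1 and -1.01 for Khk, with adjusted p values of 0.0881 to 0.986 in limma. With KO marrow the calls of Slc15a1 (-0.99, adjusted p = 0.117 in limma), Khk (-0.94, adjusted p = 0.0723 in limma) and Nqo1 (-1.13, adjusted p = 0.0512 in limma) were lost with the block. Those of Asns, Cebpb, Cth, Pfkfb3, Pfkl and Hmox1 were kept with KO marrow.

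KO marrow was next set against WT marrow in treated mice. Limma called 0 of 67 carriers, and 0.00% of all genes, and at an unadjusted p under 0.05 counted 1 carrier, Slc5a9, where 0.973% of all genes passed. Slc5a9 was at 2.71, 2.52 and 2.19 in treated KO-marrow mice, against 3.54, 3.01 and 3.00 in treated WT-marrow mice. The groups did not overlap, and the log2 difference was -0.71 ± 0.25 (adjusted p = 1.0 in limma). In untreated mice the Slc5a9 difference of KO minus WT marrow was -0.35 ± 0.25, with overlapping groups. After Slc5a9 the lowest statistics belonged to Slc43a1, a carrier of branched-chain amino acids, at -0.54 ± 0.39, and Slc1a3. Slc1a3 was well above background on 0 treated KO-marrow arrays and 1 treated WT-marrow array, so no difference is given for it. The highest belonged to the proline carrier Slc6a7 at 1.29 ± 0.69, Slc1a1 at 0.42 ± 0.24 and Slc2a10 (GLUT10) at 0.63 ± 0.40, and none of these passed the threshold. Slc2a5 differed by less than its spread between mice, with means of -2.31 ± 0.66 in treated KO-marrow mice and -2.37 ± 0.66 in treated WT-marrow mice (SD, n = 3 each). Within slide 2, with 1 array against 1, the fit counted 16 carriers and 19.3% of all genes past the threshold, but its spread came from the 2 untreated KO-marrow arrays of that slide, so the count says nothing about marrow.

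In untreated mice limma also called 0 of 67 carriers between KO and WT marrow, and 0.00% of all genes. At an unadjusted p under 0.05 it counted 11 carriers, where 12.3% of all genes passed. The lowest statistics belonged to Slc38a7 at -1.43 ± 0.41, Slc36a2 at -2.77 ± 0.84 and Slc6a13 at -1.79 ± 0.61, carriers that were high on slide 1. With slide as a block these differences were -0.31, -0.74 and -0.38. Without untreated KO-marrow mouse 1, which left the KO and WT mice on separate slides, 6 carriers were called lower with KO marrow. The share of all genes called in that fit is not given here, so the count is not read as a result about carriers. The highest statistics belonged to Slc38a2 at 0.62 ± 0.22, Slc5a6 at 0.86 ± 0.39 and Slc6a4 at 1.01 ± 0.49, none of them past the threshold. Slc38a2 had levels of 3.43, 3.57 and 3.77 in untreated KO-marrow mice, against 3.03, 2.90 and 2.97 in untreated WT-marrow mice, which did not overlap. The marrows did not overlap for 3 carriers that were higher with KO marrow and 3 that were lower, where the shares of all genes were 6.17% and 6.57%.

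The interaction, the treatment effect with KO marrow minus that with WT marrow, was called by limma for 0 of 67 carriers and 0.00% of all genes. At an unadjusted p under 0.05 limma counted 3 carriers, where 3.49% of all genes passed. They were Slc6a13 at 2.62 ± 0.87, Slc38a7 at 1.66 ± 0.59 and Slc36a2 at 2.81 ± 1.19, and with slide as a block their interactions were 1.2, 0.54 and 0.78. The lowest statistics belonged to Slc7a9 at -0.80 ± 0.50, Slc1a5 at -0.42 ± 0.32 and Slc38a2 at -0.40 ± 0.33. For Slc5a9 the interaction was -0.35 ± 0.35 and for Slc7a7 -0.04 ± 0.30. The larger number of calls with WT marrow than with KO marrow is therefore not a called difference for any carrier.

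The 13 carriers that were not tested were Slc2a12, Slc5a2, Slc5a12, Slc7a2, Slc7a10, Slc7a12, Slc7a13, Slc7a15, Slc6a2, Slc6a5, Slc6a18, Slc6a19 and Slc43a2. Slc5a2, the glucose carrier known from kidney, was well above background on 8 of 12 arrays and Slc43a2, a carrier of large neutral amino acids, on 7, without filling any 1 group. The arginine carrier Slc7a2 reached that mark on 5 arrays and Slc6a19, the main neutral amino acid carrier of small-intestinal brush border, on 4. Slc5a12 and the glycine carrier Slc6a5 reached it on 0 arrays. No comparison between groups was made for these 13 carriers.

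The authors' deposited table of group means holds 2506 probes, 14 of them for 13 carriers. Its column medians were 0.11 in treated KO-marrow mice, 0.11 in treated WT-marrow mice, -0.18 in untreated KO-marrow mice and 0.05 in untreated WT-marrow mice. In the authors' deposited table the treated minus untreated value was positive with both marrows for 4 of these probes and negative with both for 10. Slc5a9 had 2.93 with KO marrow and 3.29 with WT marrow in the authors' deposited table, and Slc2a5 had -3.89 and -3.53. The authors' deposited table also holds Slc6a4, at -1.91 with KO marrow and -1.34 with WT marrow.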

How the data were processed

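The authors deposited the intensity of each spot on 12 single-colour Agilent arrays, background-corrected by Feature Extraction (version 10.7.3.1 in the file headers) and not scaled between arrays. The deposited table of the authors' log2 group means followed group mean minus the probe's median over the arrays (r = 0.996 over its probes and groups); how they scaled the arrays first stays unknown here.

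The log2 processed signal minus each array's 75th percentile was used, with control spots and outlier-flagged spots left out (R 4.3.3, limma 3.58.1). Of 41174 probes, 24375 were named through unversioned RefSeq accessions. One mean per group was fitted to 12 arrays with intensity-trended moderated variances (8 residual and 4.9 prior degrees of freedom). Array number limits the precision. Carriers, lists and tests were chosen with earlier results of these data known. Carriers called in any comparison and a fixed list of carriers are named, and, where 0 passed, the 3 highest and 3 lowest statistics. The normexp alternative (offset 50) used the median signal. On simulated data for the WT-marrow treatment effect (22161 genes), 60% to 64% of 3-unit changes and 32% to 38% of 2-unit changes were recovered. The simulated noise was independent between arrays, without a slide effect. These shares therefore do not carry over to the real WT-marrow comparison, whose groups share no slide. Same-numbered mice correlated in their deviations at 0.31 to 0.51 in treated mice of both marrows, each best with its own number. Treated mice of the same number shared a slide, but numbers 1 and 2 were both on slide 3. Elsewhere same-numbered mice did not correlate in every pair.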

Additional observations from a re-analysis of the deposited data

How the results depend on the processing

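With WT marrow, 16 carriers were called for treatment. The count was 5 with normexp background correction (1 higher), 10 where probes had to be well above background on all 12 arrays (49 carriers tested), 8 with only the groups compared in the fit and 1 with slide as a block. Quantile normalization called 20 (5 higher, 15 lower). Leaving out 1 array gave 4 to 29 calls: 4 without treated WT-marrow mouse 1 or untreated WT-marrow mouse 1 or 2, 9 without treated WT-marrow mouse 2 and 29 without treated WT-marrow mouse 3, the dim array. With KO marrow, 4 carriers were called, against 10 with slide as a block and 20 within slide 2, where 26.3% of all genes were called. Leaving out 1 array gave 2 to 10: 2 without treated mouse 1 or untreated mouse 2 or 3, and 10 without treated WT-marrow mouse 3. Between marrows in treated mice the count was 0, 0 to 0 on leaving out 1 array, and 16 within slide 2, where 1 array stood against 1, the spread came from 2 untreated arrays and the count says nothing about marrow. In untreated mice it was 0, and 0 to 6 on leaving out 1 array. The interaction gave 0 on leaving out any array. Where no share of all genes is given beside a count, the count is not read as a result about carriers. The median of all genes with WT marrow was -0.24, and -0.04 with quantile normalization, 0.39 with normexp and 0.47 with the slide block. Differences with WT marrow turned positive for Slc1a2 (0.42), Slc38a5 (0.67) and Slc6a17 (0.10) with normexp, and for Slc2a2 (0.37), Slc36a2 (0.55), Slc5a10 (0.89) and Slc6a17 (0.56) with slide as a block. The cause was not tested. The replicate block gave 13 calls with WT marrow, 4 with KO marrow and 0 in the other 3 comparisons, and the pairing changed no call between marrows. Slc5a9 in both marrows and Slc2a5 with KO marrow kept their direction and call in each alternative run. Dim probes limit the untested carriers.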
